A study of Mus musculus with 18 samples.

Results

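Polycomb genes and the genes of enzymes that add or remove methyl groups on histones were followed in cortex of BAF155 conditional knockout (cKO) mice given TSA or vehicle. The set holds 42 genes, matched by symbol to the Ensembl genes of the RNA count tables, which list 47729 genes, and all 42 were among the 15000 genes that passed the filter on low counts. They were grouped by the residue that their products, or for Kmt2e its family, act on: 10 genes of H3K4 (lysine 4 of histone H3), 5 of H3K36, 1 of H3K79, 11 of H3K9, 7 of H3K27 and 8 of Polycomb repressive complex 1 (PRC1), which acts on H2AK119.

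The tissue was bulk cortex at E15.5, a stage of neuron production. The groups compared were BAF155 cKO given TSA (trichostatin A), which inhibits histone deacetylases, with 4 RNA and 4 H3K9ac libraries, and BAF155 cKO given vehicle, with the same numbers. H3K9ac, acetylation of lysine 9 of histone H3, marks active promoters. Both groups carry the conditional deletion of BAF155, which Smarcc1 encodes and which belongs to the core of the BAF chromatin remodelling complex, and no sample with the intact gene was analysed here. The driver of the deletion, the dose and timing of TSA, and whether a library came from 1 or several embryos are not stated in the labels. Nothing in the labels says that replicates were separate animals, and p-values therefore measure the spread between these libraries, which may be technical.

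Histone methylation is written, erased and read by separate proteins, and its effect depends on the residue. The KMT2 and SETD1 enzymes methylate H3K4 at enhancers and promoters, and SETD2, NSD1 and ASH1L methylate H3K36 in and around transcribed genes. The SUV39H, SETDB and EHMT enzymes methylate H3K9 in silent chromatin, while Polycomb repressive complex 2 (PRC2) methylates H3K27 and PRC1 adds ubiquitin to histone H2A at silenced developmental genes. In the embryonic cortex PRC2 is known for timing the passage of progenitors from neuron to glia production. Erasers of the KDM families reverse these marks, each on its own residues.

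Levels are in CPM, that is, counts divided by the scaled size of the library. RNA totals ran from 6733415 to 20400727 counts in the 4 TSA libraries and from 12200426 to 15600340 counts in the 4 Vehicle libraries. Smarcc1 itself had 132 ± 10.6 CPM in TSA and 136 ± 10.7 CPM in Vehicle libraries (SD, n = 4 each) and whole-gene counts in knockout samples alone cannot check the deletion. The libraries differed in sex-linked RNA. TSA 1, 2 and 3 held 2, 26 and 10 counts of Xist, the RNA that coats an inactive X chromosome, while TSA 4 and the 4 Vehicle libraries held between 25666 and 44947. Kdm5d, a Y-linked gene, had 549 to 1774 counts in TSA 1 to 3 and 0 to 18 counts in the other 5 libraries. Outside TSA 4, sex and treatment therefore cannot be told apart. TSA 4 was the only TSA library with abundant Xist, and its position is given beside the results below.

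Genes of methylation enzymes were higher in TSA more often than lower, and the counts in each direction varied with the residue. Of the 42 genes 24 were called, or 57.1%, against 33% of all tested genes. Of these 20 rose, or 47.6%, against 15.4% of all tested genes, and 4 fell, or 9.52%, against 17.6% (edgeR quasi-likelihood test, Benjamini-Hochberg adjusted p under 0.05). The median log2 fold change, TSA minus Vehicle, was 0.26 over the 42 genes and −0.01 over all tested genes. All 7 genes grouped as H3K4 writers and all 5 H3K36 genes rose, whereas 1 of 6 H3K9 writers, 1 of 5 PRC2 genes and 1 of 8 PRC1 genes did, and 3 PRC1 genes fell. Kmt2e is counted among the H3K4 writers by its family, although its protein is not known as an active methyltransferase. The median log2 fold change was 0.50 for H3K4 genes, 0.48 for H3K36 genes, 0.15 for H3K9 genes, 0.07 for H3K27 genes and −0.10 for PRC1 genes. By activity, 11 of the 17 writers and 7 of the 12 erasers rose, and 0 writers and 1 eraser fell. The differences between residues were not tested.

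In 17 of the 42 genes, or 40.5%, all 4 TSA libraries lay above all 4 Vehicle libraries, against 14.9% of all tested genes, and in 3, or 7.14%, they lay below, against 17.4%. TSA 4, the TSA library with abundant Xist, lay above all 4 Vehicle libraries in 20 of the 20 genes that rose and below all of them in 4 of the 4 that fell. Over all tested genes this held for 2217 of 2314 that rose and 2534 of 2640 that fell. These genes were called with TSA 4 among the TSA libraries, so its position is not an independent check. With Xist level as a covariate 7 of the 42 genes rose and 0 fell, and with TSA 4 alone set against the 4 Vehicle libraries 3 rose (Kmt2d, Setd1b and Kdm6b) and 0 fell. The median log2 fold change of the 42 genes was 0.34 in each of these settings, against 0.26 in the main test. None of the 24 called genes changed sign, while Kmt2b and Ehmt2 moved from 0.39 and 0.27 to 0.59 and 0.43 with the covariate. The part of sex in the lost calls was not tested. Within lane numbers 1, 2 and 3 the median log2 difference, TSA minus Vehicle, was 0.07, 0.18 and 0.39 over the 42 genes and −0.03, 0.01 and 0.00 over all tested genes. Lane number 1 was carried by 2 TSA libraries and 1 Vehicle library, number 2 by 1 of each, and number 3 by 1 TSA and 2 Vehicle libraries. These numbers were read from the names under which the RNA counts were deposited, and the labels do not state lanes. Libraries with the same number are not shown to have shared a sequencing run.

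**Figure D1:**
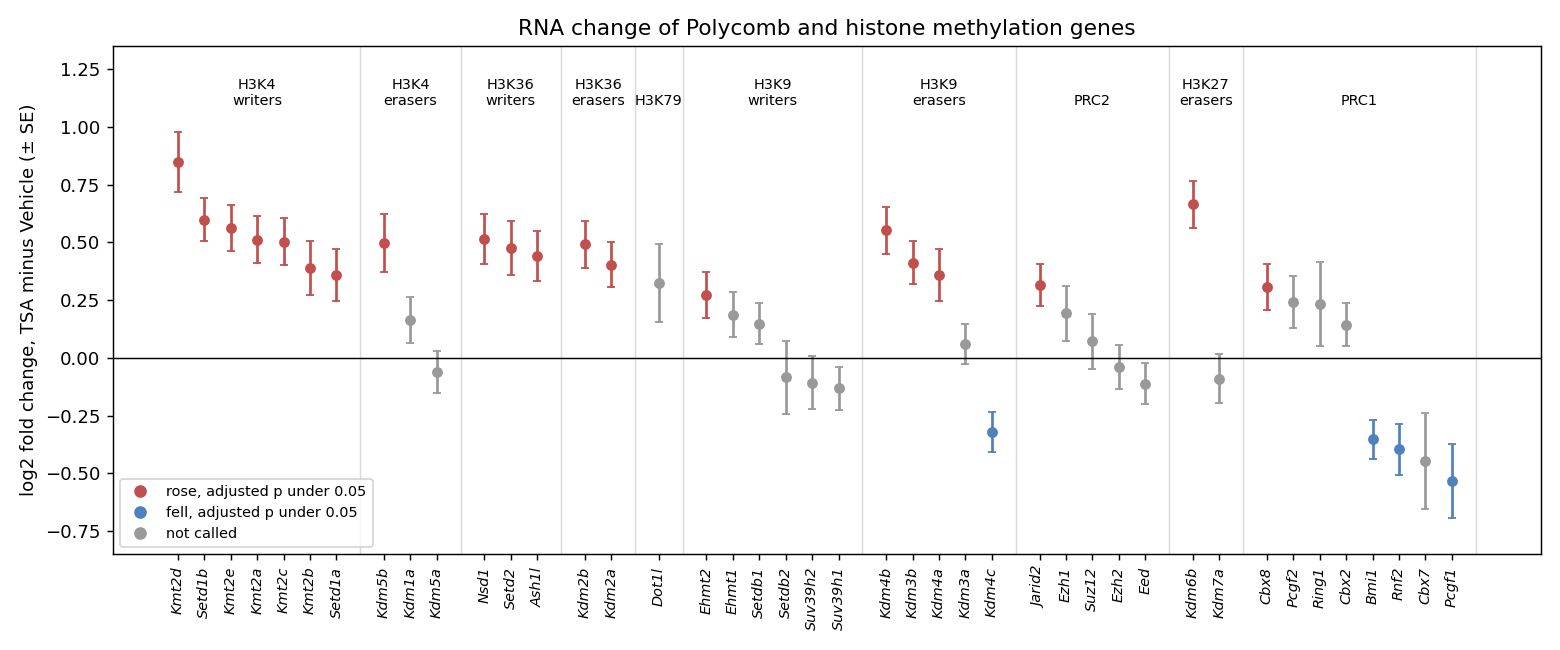
Log2 fold change (TSA minus Vehicle, ± SE, n = 4 libraries per group) of each of the 42 genes, grouped by what its product does, with genes that rose in red, genes that fell in blue and genes not called in grey. The 7 H3K4 writers, the 3 H3K36 writers and the 2 H3K36 erasers lie above 0, while PRC2 lies between −0.11 and 0.31, the H3K9 writers between −0.13 and 0.27 and PRC1 between −0.53 and 0.31.

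The H3K4 writers are the KMT2 family, whose KMT2A and KMT2B are the mammalian trithorax proteins and whose KMT2C and KMT2D act at enhancers, and SETD1A and SETD1B, which supply most promoter H3K4 trimethylation. Kmt2d (chromosome 15, 98831669 to 98874077), a gene mutated in Kabuki syndrome, changed most of all 42 genes. It had 232, 199, 206 and 243 CPM in TSA 1 to 4, against 152, 102, 102 and 132 CPM in Vehicle 1 to 4. Every TSA library lay above every Vehicle library, with a log2 fold change of 0.85 ± 0.13 (SE, adjusted p = 0.000280), a 1.80-fold difference. Setd1b (chromosome 5, 123142040 to 123168630) had 147, 133, 130.1 and 159 CPM in TSA 1 to 4, against 96.1, 98.8, 97.1 and 83.7 CPM in Vehicle 1 to 4. The 4 Vehicle libraries were close together and all below the lowest TSA library, and the log2 fold change was 0.60 ± 0.09 (adjusted p = 0.000322).

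The other 5 H3K4 writers rose by less. Kmt2e, whose protein carries a SET domain but is not known as an active methyltransferase, changed by 0.56 ± 0.10 (adjusted p = 0.000746), Kmt2a by 0.51 ± 0.10 (0.00175) and Kmt2c by 0.50 ± 0.10 (0.00173), each with groups that did not overlap. Kmt2b changed by 0.39 ± 0.12 (adjusted p = 0.0194) and Setd1a by 0.36 ± 0.11 (0.0248). In these 2 genes Vehicle 1 reached into the TSA range. Kmt2b had 214 CPM in Vehicle 1, against 204 CPM in the lowest TSA library, and Setd1a had 47.4 CPM in Vehicle 1, against 45.7 CPM. The call of Kmt2b ended without TSA 1, TSA 4 or Vehicle 3 (adjusted p = 0.0624, 0.0762 and 0.0625). That of Setd1a ended without TSA 1, TSA 2, TSA 4, Vehicle 3 or Vehicle 4 (adjusted p = 0.0572, 0.0646, 0.0781, 0.0786 and 0.0699).

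The promoters of Kmt2d and Kmt2a are shown because their H3K9ac peaks ranked high by fold enrichment. Both are taken from RefSeq on GRCm38.p6 and run from 250 bases before to 30 bases after the listed start on the gene's strand. The capitals mark GC boxes, written GGGCGG, and ETS cores, written CCGGAA, on either strand.
Kmt2d, chr15:98871176-98871455, minus strand: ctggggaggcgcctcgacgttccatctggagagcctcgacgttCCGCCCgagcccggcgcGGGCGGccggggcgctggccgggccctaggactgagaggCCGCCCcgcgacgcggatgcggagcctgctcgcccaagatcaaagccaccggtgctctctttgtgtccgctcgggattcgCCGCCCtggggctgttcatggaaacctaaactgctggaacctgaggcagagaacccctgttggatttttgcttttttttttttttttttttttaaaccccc
Kmt2a, chr9:44881260-44881539, minus strand: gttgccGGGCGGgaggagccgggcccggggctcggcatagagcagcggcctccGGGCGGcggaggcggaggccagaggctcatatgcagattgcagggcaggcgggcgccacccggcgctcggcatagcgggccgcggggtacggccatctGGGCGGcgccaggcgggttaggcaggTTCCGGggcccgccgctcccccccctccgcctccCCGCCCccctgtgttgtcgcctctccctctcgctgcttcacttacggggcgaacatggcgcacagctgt
The Kmt2d window holds 4 GC boxes and 26 CpG dinucleotides, and that of Kmt2a holds 4 GC boxes, 1 ETS core and 32 CpG dinucleotides. Within a library, peaks at gene starts were ranked by the authors' fold enrichment. Over the 8 libraries Kmt2d had a median percentile of 97.7, with a range of 95.1 to 99.8, and Kmt2a a median of 96.3, with a range of 80.2 to 98.2. These ranks describe each list and show no change between lists.

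Of the 3 H3K4 erasers 1 rose. Kdm5b (chromosome 1, 134560178 to 134632878), a demethylase of H3K4 trimethylation, had 406, 411, 427 and 379 CPM in TSA 1 to 4, against 264, 362, 299.6 and 225 CPM in Vehicle 1 to 4. The groups did not overlap, although Vehicle 2 came close to TSA 4, and the log2 fold change was 0.50 ± 0.12 (adjusted p = 0.00688). It was 0.29 (adjusted p = 0.0326) without Vehicle 1 and Vehicle 4. Its paralogue Kdm5a had 145 ± 5.94 CPM in TSA and 151 ± 16.5 CPM in Vehicle libraries (SD, n = 4 each) and a log2 fold change of −0.06 ± 0.09 (adjusted p = 0.654). Kdm1a, which encodes LSD1, an eraser of H3K4 mono- and dimethylation, had 368 ± 8.72 CPM in TSA and 329 ± 43.1 CPM in Vehicle libraries, a log2 fold change of 0.16 ± 0.10 (0.231), and among the alternatives run was called only without Vehicle 2 (0.25, adjusted p = 0.0358). The log2 ratio of Kdm5b to Kdm5a was 1.48 ± 0.02 in TSA and 0.91 ± 0.17 in Vehicle libraries, so the near-constant ratio in TSA stood above all 4 Vehicle values.

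The Kdm5b promoter is shown as that of the risen H3K4 eraser, with its GC box in capitals.
Kdm5b, chr1:134559928-134560207, plus strand: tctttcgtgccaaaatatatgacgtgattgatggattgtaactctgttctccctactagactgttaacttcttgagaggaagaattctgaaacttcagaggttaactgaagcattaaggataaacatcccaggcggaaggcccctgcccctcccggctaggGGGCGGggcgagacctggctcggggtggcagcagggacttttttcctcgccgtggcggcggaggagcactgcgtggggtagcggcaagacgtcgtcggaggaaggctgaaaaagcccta
It holds 1 GC box and 16 CpG dinucleotides in 280 bases, fewer of each than the Kmt2d and Kmt2a promoters, and its start carried a peak in all 8 H3K9ac libraries.

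**Figure D2:**
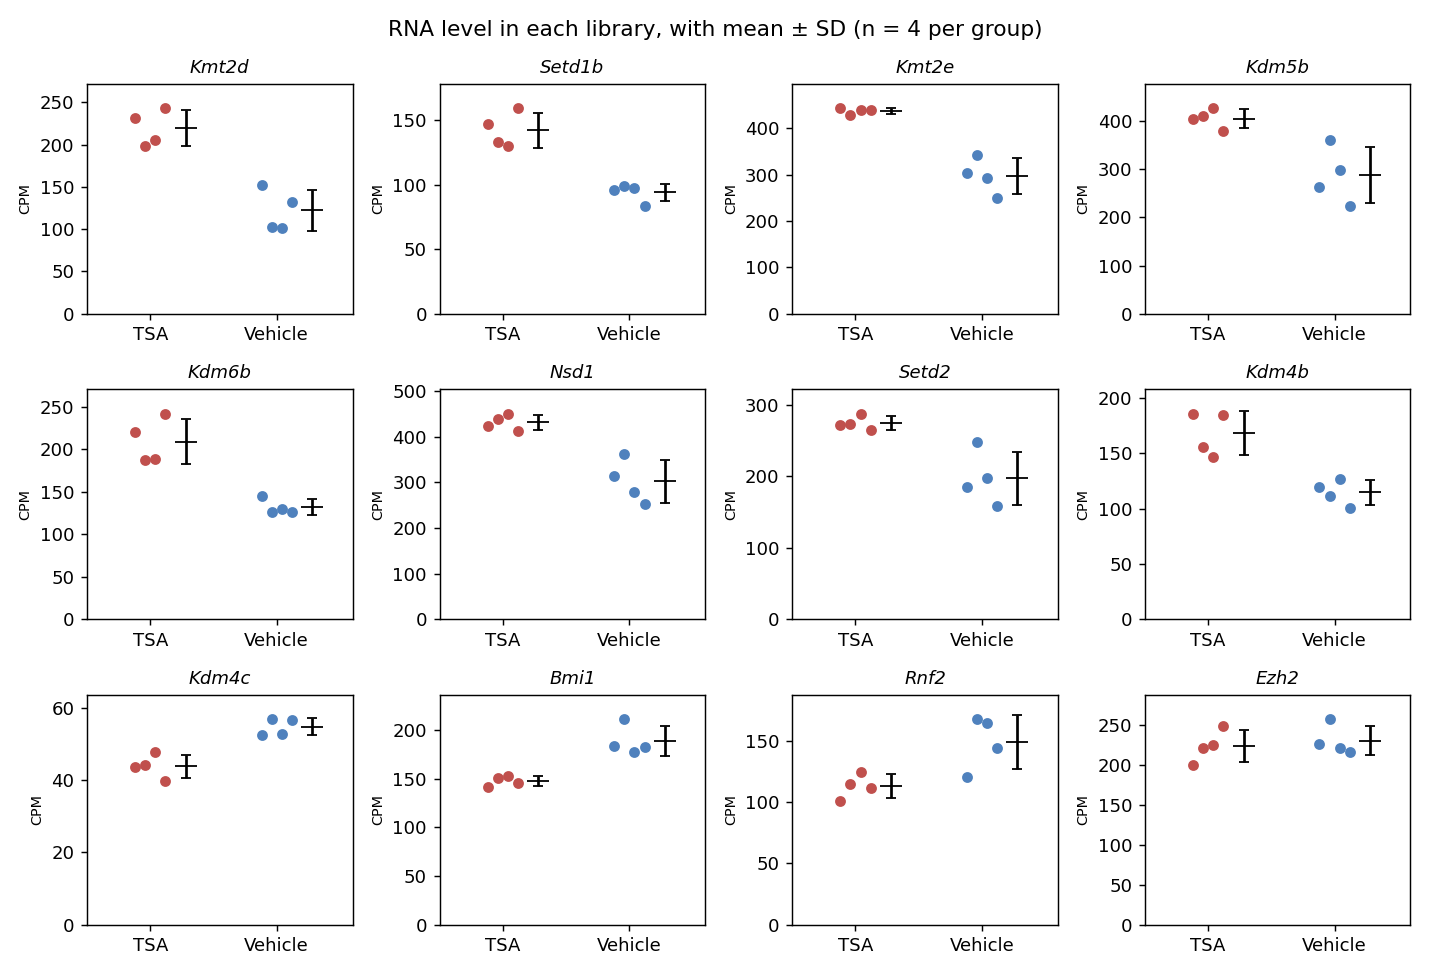
RNA level in CPM (library-scaled counts) of 12 of the genes in each library, TSA in red and Vehicle in blue, with the mean and SD (n = 4 per group) in black. Red points stand above blue points for Kmt2d, Setd1b, Kmt2e, Kdm5b, Kdm6b, Nsd1, Setd2 and Kdm4b and below them for Kdm4c and Bmi1, whereas Rnf2 overlaps at the edge and Ezh2 overlaps throughout.

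All genes grouped here under H3K36 rose, writers and erasers alike. Of the KDM4 genes, grouped under H3K9 though their products also act on H3K36, Kdm4a and Kdm4b rose and Kdm4c fell. The Nsd1 relatives Nsd2 (0.06 ± 0.09, adjusted p = 0.699) and Nsd3 (0.21 ± 0.08, 0.0507), which are not in the set, were not called. Nsd1 (chromosome 13, 55209782 to 55318325), a writer of H3K36 dimethylation mutated in Sotos syndrome, had 424, 440.1, 451 and 413 CPM in TSA 1 to 4, against 315, 362, 279 and 253 CPM in Vehicle 1 to 4. Each TSA library exceeded the highest Vehicle library, and the log2 fold change was 0.51 ± 0.11 (adjusted p = 0.00239). Setd2 (chromosome 9, 110532500 to 110618633), the enzyme that trimethylates H3K36 in gene bodies, had 272, 273, 288 and 265 CPM in TSA 1 to 4, against 185, 248, 198 and 158 CPM in Vehicle 1 to 4. Vehicle 2 came closest to the TSA range without entering it, and the log2 fold change was 0.48 ± 0.12 (adjusted p = 0.00606). Ash1l, a trithorax-group writer of H3K36 methylation, changed by 0.44 ± 0.11 (adjusted p = 0.00625), with means of 234 ± 9.72 CPM in TSA and 172 ± 28.6 CPM in Vehicle libraries.

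The H3K36 erasers KDM2A and KDM2B bind unmethylated CpG islands, and KDM2B also recruits a variant PRC1. Kdm2b (chromosome 5, 122870664 to 122989270) had 147, 128, 120.1 and 141 CPM in TSA 1 to 4, against 90.2, 106, 103 and 82.0 CPM in Vehicle 1 to 4. The lowest TSA library was above the highest Vehicle library, with a log2 fold change of 0.49 ± 0.10 (adjusted p = 0.00207). Kdm2a (chromosome 19, 4316144 to 4398721) had 188, 211, 201 and 188 CPM in TSA 1 to 4, against 157, 169.6, 143 and 127 CPM in Vehicle 1 to 4. Its groups did not overlap either, and the log2 fold change was 0.40 ± 0.10 (adjusted p = 0.00572). All 5 H3K36 genes remained called when any single library was left out. With Xist level as a covariate only Kdm2b of the 5 passed (0.55, adjusted p = 0.0468), while the log2 fold changes of the others were 0.45 for Nsd1, 0.40 for Setd2, 0.39 for Ash1l and 0.34 for Kdm2a. Without Vehicle 1 and Vehicle 4 that of Setd2 was 0.30 (adjusted p = 0.0291).

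The Setd2 promoter is the richest in GC boxes of those shown, with 7, some of which overlap, and 35 CpG dinucleotides.
Setd2, chr9:110532347-110532626, plus strand: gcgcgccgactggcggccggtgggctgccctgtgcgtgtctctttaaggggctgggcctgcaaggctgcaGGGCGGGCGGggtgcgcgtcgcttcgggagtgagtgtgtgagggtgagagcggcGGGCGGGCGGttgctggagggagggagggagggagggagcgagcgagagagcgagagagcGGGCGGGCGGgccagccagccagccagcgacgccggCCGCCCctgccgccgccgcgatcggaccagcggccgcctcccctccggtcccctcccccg

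Dot1l, the only gene of the set for H3K79 methylation, which marks transcribed genes, was spread more widely than the H3K36 genes. It had 202, 168, 163 and 226 CPM in TSA 1 to 4, against 204, 113, 123 and 165 CPM in Vehicle 1 to 4. Vehicle 1 exceeded 3 of the 4 TSA libraries, and the log2 fold change of 0.32 ± 0.17 did not pass (adjusted p = 0.161). It was called without Vehicle 1 (0.50, adjusted p = 0.0171), without Vehicle 1 and Vehicle 4 (0.68, 0.00336) and with no filter on low counts (0.0147).

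Gene length moved with the RNA changes. The 5 H3K36 genes span 82578 to 128962 bp, and the 42 genes have a median span of 42771.5 bp, against 24198 bp for all tested genes. Among all tested genes the median log2 fold change ran from −0.16 under 10 kb to 0.17 over 100 kb, and the share that rose ran from 6.01% under 10 kb through 11.9% and 21.1% to 31.8% over 100 kb. Of the 42 genes, 1 of 5 rose under 10 kb, 5 of 9 from 10 to 30 kb, 9 of 21 from 30 to 100 kb and 5 of 7 over 100 kb. Those that fell numbered 2, 0, 1 and 1 in the same classes, where 25%, 21.8%, 14.4% and 6.96% of all tested genes fell. With the span trend of each library removed, all 7 H3K4 writers and all 5 H3K36 genes were still called, with Kmt2d at 0.84, Setd1b at 0.61, Nsd1 at 0.43 and Setd2 at 0.42 on the log2 scale.

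**Figure D3:**
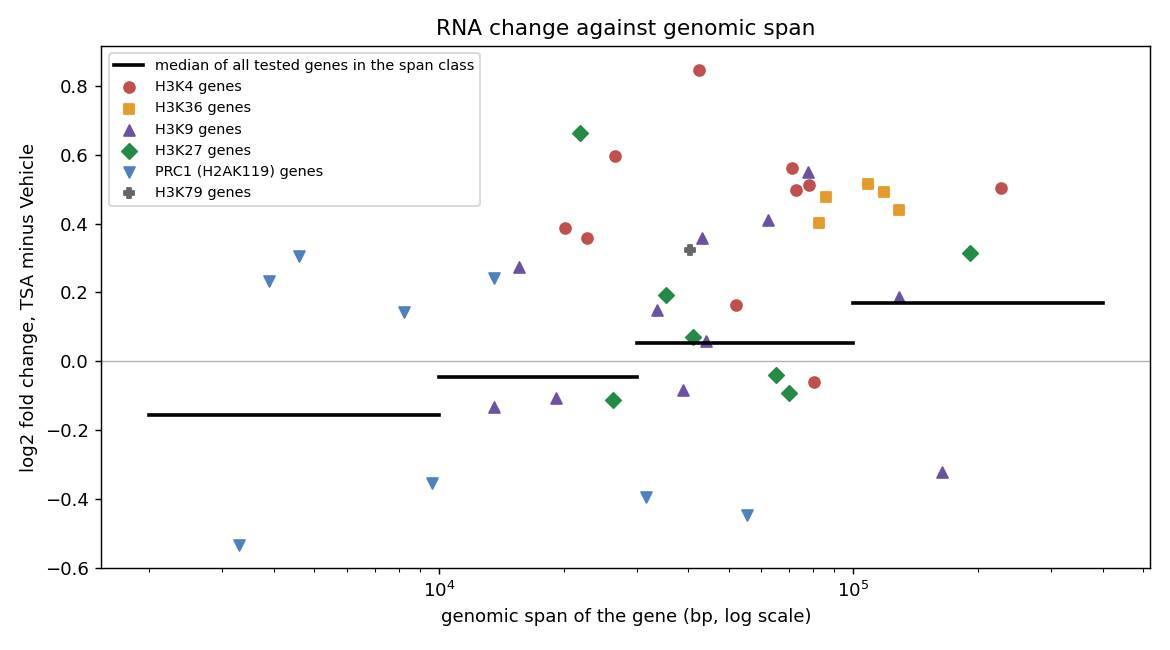
Log2 fold change (TSA minus Vehicle) of each of the 42 genes against its genomic span in bp on a log axis, with symbols for the residue; black bars give the median of all tested genes in 4 span classes. H3K4 and H3K36 genes lie above the bar of their class except Kdm5a (−0.06), and PRC1 genes lie on both sides of it at short spans.

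Of the 5 H3K9 erasers 3 rose and 1 fell, and of the 6 H3K9 writers 1 rose. Kdm4b (chromosome 17, 56325970 to 56403774), an eraser of H3K9 trimethylation, had 186, 156, 147 and 185 CPM in TSA 1 to 4, against 119.5, 112, 127 and 101 CPM in Vehicle 1 to 4. No Vehicle library reached the TSA range, and the log2 fold change was 0.55 ± 0.10 (adjusted p = 0.00109). Kdm3b, an eraser of H3K9 mono- and dimethylation, had 205, 199, 199 and 194 CPM in TSA 1 to 4, against 150.0, 173, 145 and 131 CPM in Vehicle 1 to 4. The TSA libraries lay close together and above all Vehicle libraries, with a log2 fold change of 0.41 ± 0.09 (adjusted p = 0.00365). Kdm4a changed by 0.36 ± 0.11 (adjusted p = 0.0255), a call that ended without TSA 1, TSA 2, TSA 4, Vehicle 1 or Vehicle 4 (adjusted p = 0.0766, 0.0723, 0.0669, 0.0570 and 0.0602). Without both Vehicle 1 and Vehicle 4, the pair richest in mitochondrial reads, its log2 fold change was 0.18 (adjusted p = 0.111). Kdm3a did not pass, at 160.4 ± 6.61 CPM in TSA and 154 ± 13.7 CPM in Vehicle libraries (log2 fold change 0.06 ± 0.09, adjusted p = 0.653).

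Kdm4c (chromosome 4, 74242497 to 74405864) went the other way. It had 43.6, 44.1, 47.8 and 39.8 CPM in TSA 1 to 4, against 52.5, 56.9, 52.9 and 56.8 CPM in Vehicle 1 to 4. All TSA libraries lay below all Vehicle libraries, and the log2 fold change was −0.32 ± 0.09 (adjusted p = 0.0118). KDM4A, KDM4B and KDM4C share their catalytic domain and act on H3K9 and H3K36 trimethylation. The log2 ratio of Kdm4b to Kdm4c was 1.94 ± 0.27 in TSA and 1.06 ± 0.20 in Vehicle libraries, and that of Kdm4a to Kdm4c was 2.95 ± 0.16 in TSA and 2.26 ± 0.28 in Vehicle libraries, with no overlap in either ratio. Kdm4c spans 163368 bp, a class in which 6.96% of all tested genes fell, and its log2 fold change was −0.45 (adjusted p = 0.00108) with the span trend removed.

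RefSeq lists 2 starts for Kdm4c, shown because H3K9ac told them apart. The window at the upstream start has 0 CpG dinucleotides, 39.6% G and C, and no motif searched, and 0 of 8 libraries had a peak there. That at the downstream start has 25 CpG dinucleotides, 63.2% G and C, and a GC box after the start (capitals), and 8 of 8 libraries had a peak.
Kdm4c, upstream start, chr4:74242247-74242526, plus strand: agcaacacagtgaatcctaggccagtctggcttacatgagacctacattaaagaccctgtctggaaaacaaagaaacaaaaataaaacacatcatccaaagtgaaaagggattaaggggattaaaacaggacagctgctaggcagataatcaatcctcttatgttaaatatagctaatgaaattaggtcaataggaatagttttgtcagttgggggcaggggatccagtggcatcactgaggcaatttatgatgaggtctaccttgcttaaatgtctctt
Kdm4c, downstream start, chr4:74251629-74251908, plus strand: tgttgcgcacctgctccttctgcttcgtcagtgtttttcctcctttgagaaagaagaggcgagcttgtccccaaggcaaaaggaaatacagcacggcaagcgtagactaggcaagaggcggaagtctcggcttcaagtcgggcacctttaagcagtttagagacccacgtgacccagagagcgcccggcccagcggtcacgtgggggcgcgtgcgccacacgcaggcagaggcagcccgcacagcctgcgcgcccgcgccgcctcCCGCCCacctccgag
Kdm3a showed a like contrast among its 3 listed starts. The start at 71609139 on chromosome 6 had 0 CpG dinucleotides and no peak in any library, and those at 71632686 and 71632917 had 37 and 22 CpG dinucleotides and a peak in all 8.

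Ehmt2 was the H3K9 writer that rose. Ehmt2 (chromosome 17, 34898463 to 34914073), which encodes the H3K9 dimethyltransferase G9a, had 307, 282, 259 and 329 CPM in TSA 1 to 4, against 275, 225, 247 and 228 CPM in Vehicle 1 to 4. TSA 3 lay below Vehicle 1, and the log2 fold change of 0.27 ± 0.10 passed narrowly (adjusted p = 0.0480). The call ended without any of 6 of the 8 libraries, with adjusted p of 0.132, 0.0860 and 0.169 without TSA 1, TSA 2 and TSA 4 and of 0.0753, 0.0802 and 0.108 without Vehicle 2, Vehicle 3 and Vehicle 4. Its partner Ehmt1 changed by 0.19 ± 0.10 (adjusted p = 0.161) and was called only without Vehicle 2 (0.27, 0.0218), and Setdb1, which acts with TRIM28 on retroelements, by 0.15 ± 0.09 (0.219). Setdb2 was at −0.08 ± 0.16, Suv39h1 at −0.13 ± 0.09 and Suv39h2 at −0.11 ± 0.11, none of which passed, with adjusted p of 0.728, 0.310 and 0.519. The 95% intervals of these 3 changes, −0.39 to 0.23 for Setdb2, −0.32 to 0.05 for Suv39h1 and −0.33 to 0.12 for Suv39h2, all exclude a rise of the size of Kdm4b. Suv39h1 is X-linked, and its TSA libraries with scarce Xist (45.1, 45.6 and 48.5 CPM) and TSA 4 (46.1 CPM) did not stand apart.

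Of the 7 genes of H3K27, an eraser and a PRC2 subunit rose. Kdm6b (chromosome 11, 69398508 to 69420367), which encodes JMJD3, an eraser of H3K27 trimethylation induced during neuronal differentiation, had 219.5, 187, 188 and 242 CPM in TSA 1 to 4, against 145, 127, 129 and 126 CPM in Vehicle 1 to 4. TSA 4 was the highest library and the groups did not overlap, and the log2 fold change was 0.66 ± 0.10 (adjusted p = 0.000261), 1.58-fold. Kdm7a, an eraser of H3K27 and H3K9 dimethylation, had 62.4 ± 8.20 CPM in TSA and 66.7 ± 6.79 CPM in Vehicle libraries (SD, n = 4 each; log2 fold change −0.09 ± 0.11, adjusted p = 0.559). The log2 ratio of Kdm6b to Kdm7a was 1.74 ± 0.33 in TSA and 0.98 ± 0.20 in Vehicle libraries, without overlap.

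In PRC2 the catalytic and structural subunits did not pass. Ezh2, the methyltransferase of dividing cells, had 199, 222, 226 and 249 CPM in TSA 1 to 4, against 227, 257, 222 and 216 CPM in Vehicle 1 to 4. The groups overlapped, with a log2 fold change of −0.04 ± 0.09 (adjusted p = 0.786) and a 95% interval of −0.22 to 0.14. Ezh1, the form of non-dividing cells, had 42.2, 42.6, 44.98 and 42.9 CPM in TSA 1 to 4, against 47.8, 31.1, 34.2 and 38.2 CPM in Vehicle 1 to 4. Its TSA libraries were tightly grouped inside the Vehicle range, at a log2 fold change of 0.19 ± 0.12 (adjusted p = 0.243). Ezh1 was called without Vehicle 1 (0.33, adjusted p = 0.0247) and without Vehicle 1 and Vehicle 4 (adjusted p = 0.0082). Eed, which reads H3K27 trimethylation, changed by −0.11 ± 0.09 (adjusted p = 0.363), and the scaffold gene Suz12 by 0.07 ± 0.12 (0.695).

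Jarid2 (chromosome 13, 44730774 to 44921643), an accessory subunit that helps PRC2 bind chromatin, was the PRC2 gene that rose. It had 135, 132, 139 and 141 CPM in TSA 1 to 4, against 101, 123, 117 and 98.9 CPM in Vehicle 1 to 4. The lowest TSA library stood above the highest Vehicle library, with a log2 fold change of 0.31 ± 0.09 (adjusted p = 0.0146). Jarid2 spans 190870 bp, and the call ended with the span trend removed (0.18, adjusted p = 0.106) and without Vehicle 1 and Vehicle 4 (0.19, adjusted p = 0.0730).

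PRC1 held 3 of the 4 genes that fell. Its RING subunits, RING1 and RNF2 (RING1B), carry the ubiquitin ligase, a PCGF subunit sets the type of complex, and a CBX subunit of canonical PRC1 reads H3K27 trimethylation. Bmi1 (chromosome 2, 18677018 to 18686629), the PCGF gene known for neural stem cell self-renewal, had 141, 150.4, 153 and 146 CPM in TSA 1 to 4, against 183, 211, 178 and 183 CPM in Vehicle 1 to 4. The TSA libraries all lay below the Vehicle libraries, with a log2 fold change of −0.35 ± 0.08 (adjusted p = 0.00515). Rnf2 (chromosome 1, 151469398 to 151500991) had 101, 115, 125 and 112 CPM in TSA 1 to 4, against 120.4, 168, 165 and 145 CPM in Vehicle 1 to 4. Vehicle 1 lay inside the TSA range, and the log2 fold change of −0.40 ± 0.11 (adjusted p = 0.0126) lost its call without TSA 1 (−0.34, adjusted p = 0.0577).

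Pcgf1 (chromosome 6, 83077552 to 83080855), of the variant PRC1 that contains KDM2B, also fell. It had 10.06, 9.093, 8.345 and 8.503 CPM in TSA 1 to 4, against 15.47, 10.12, 11.43 and 14.72 CPM in Vehicle 1 to 4. Vehicle 2 lay just above TSA 1, with a log2 fold change of −0.53 ± 0.16 (adjusted p = 0.0185). The call ended without TSA 4, Vehicle 1 or Vehicle 4 (adjusted p = 0.0534, 0.0547 and 0.0621), and without Vehicle 1 and Vehicle 4 together the log2 fold change was −0.27 (0.204). With the span trend removed, the changes of the short genes Bmi1 (−0.25, adjusted p = 0.0538) and Pcgf1 (−0.31, adjusted p = 0.0999) were no longer called, and Rnf2 was (−0.39, 0.0143).

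Cbx8 (chromosome 11, 119036303 to 119040913) was the PRC1 gene that rose. It had 25.2, 24.2, 22.9 and 24.6 CPM in TSA 1 to 4, against 20.4, 18.6, 19.2 and 20.1 CPM in Vehicle 1 to 4. The groups did not overlap, and the log2 fold change was 0.31 ± 0.10 (adjusted p = 0.0291). The call ended without TSA 1, TSA 2, TSA 4, Vehicle 2 or Vehicle 3 (adjusted p = 0.0688, 0.0723, 0.0729, 0.0509 and 0.0599) and with no filter on low counts (0.0946). Cbx7, at 10.2 ± 1.03 CPM in TSA and 13.9 ± 4.69 CPM in Vehicle libraries (SD, n = 4 each), had a log2 fold change of −0.45 ± 0.21 (adjusted p = 0.116) and was called without Vehicle 2 (−0.61, adjusted p = 0.00990) and with no filter on low counts (−0.44, 0.0381), but was at 0.01 (adjusted p = 0.978) without Vehicle 1 and Vehicle 4. Cbx2 changed by 0.14 ± 0.09 (adjusted p = 0.265) and was called with the span trend removed (0.26, 0.0428). Pcgf2 (0.24 ± 0.11, adjusted p = 0.120) and Ring1 (0.23 ± 0.18, 0.364) were not called. Both were called without Vehicle 1 (adjusted p = 0.00800 and 0.0403), without Vehicle 1 and Vehicle 4 (0.0024 and 0.024) and with the span trend removed (0.0233 and 0.0360).

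Paralogues within PRC1 had unequal changes. The level of such a ratio also depends on gene length. A constant effect of length cancels in its difference between groups, but a span trend that differs between libraries does not. The slope of that trend was 0.028 to 0.155 in TSA and −0.199 to 0.047 in Vehicle libraries. Cbx8 spans 4611 bp and Cbx7 55340 bp, while Pcgf2 and Bmi1 span 13614 and 9612 bp. Ratios with the span trend removed were not computed. The log2 ratio of Pcgf2 to Bmi1, alternative PCGF subunits of canonical PRC1, was 0.04 ± 0.10 in TSA and −0.57 ± 0.33 in Vehicle libraries, and that of Cbx8 to Cbx7 was 1.25 ± 0.12 in TSA and 0.56 ± 0.44 in Vehicle libraries. Neither ratio overlapped between groups. The ratio of Ring1 to Rnf2 overlapped, at −1.87 ± 0.34 in TSA and −2.53 ± 0.64 in Vehicle libraries. Of 16 ratios of related genes formed after the values were seen, 7 did not overlap, and 32.3% of single tested genes did not. No such share was computed for pairs of genes, and the direction of a ratio follows from the gene placed on top. Those of Ezh1 to Ezh2, Ehmt2 to Ehmt1 and Suv39h1 to Suv39h2 were among the 9 that overlapped.

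**Figure D4:**
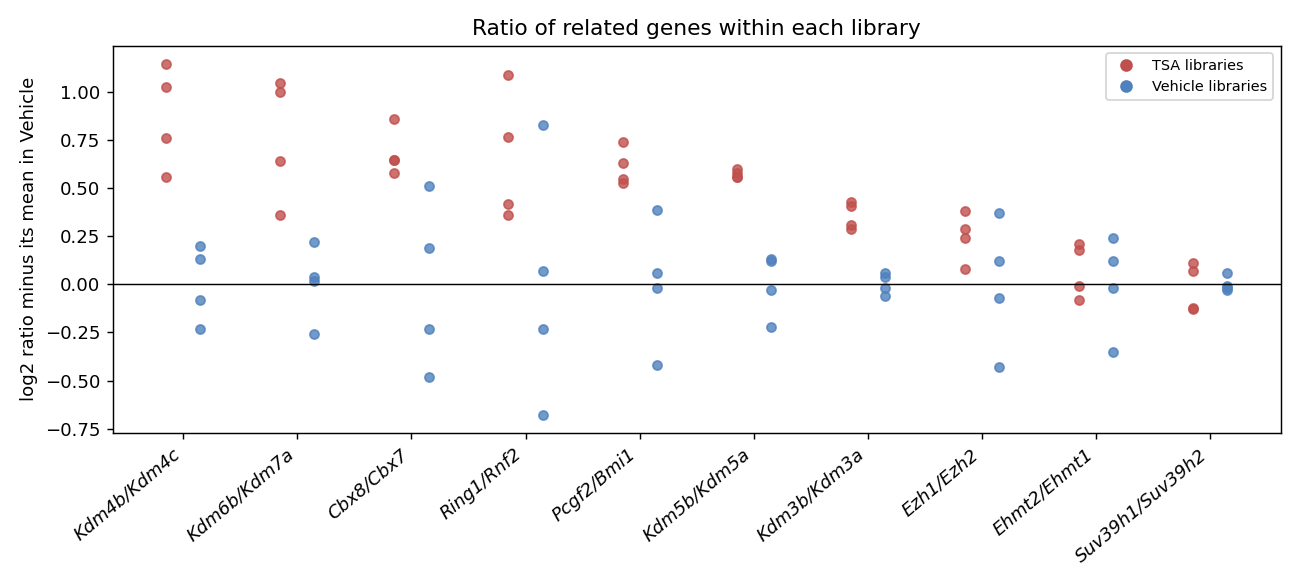
Log2 ratio of the CPM of related genes in each library, shown relative to the mean ratio of the Vehicle libraries, for 10 of the 16 pairs, TSA in red and Vehicle in blue. Red and blue points separate for Kdm4b/Kdm4c, Kdm6b/Kdm7a, Cbx8/Cbx7, Pcgf2/Bmi1, Kdm5b/Kdm5a and Kdm3b/Kdm3a and overlap for the other 4 pairs.

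The promoters of Bmi1 and Rnf2 are shown as those of PRC1 genes that fell, with GC boxes in capitals.
Bmi1, chr2:18676768-18677047, plus strand: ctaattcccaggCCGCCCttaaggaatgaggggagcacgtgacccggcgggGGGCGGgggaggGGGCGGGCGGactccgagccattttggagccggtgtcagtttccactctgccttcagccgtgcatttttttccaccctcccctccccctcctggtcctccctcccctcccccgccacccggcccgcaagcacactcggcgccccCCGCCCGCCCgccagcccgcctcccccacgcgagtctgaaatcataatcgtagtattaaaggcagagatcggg
Rnf2, chr1:151500962-151501241, minus strand: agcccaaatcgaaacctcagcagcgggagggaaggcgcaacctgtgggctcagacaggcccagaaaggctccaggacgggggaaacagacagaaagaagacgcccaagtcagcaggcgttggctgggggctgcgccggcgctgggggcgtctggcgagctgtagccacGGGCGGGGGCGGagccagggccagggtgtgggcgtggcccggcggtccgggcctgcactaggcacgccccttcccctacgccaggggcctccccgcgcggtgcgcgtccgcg
Bmi1 has 6 GC boxes and Rnf2 has 2, so GC boxes occurred at starts of genes that rose and of genes that fell. Over the 39 promoters that RefSeq lists for 30 of the 42 genes, 29 hold a GC box (GGGCGG on either strand), 15 a CCAAT box (CCAAT), 10 an ETS core (CCGGAA) and 1 a TATA box (TATAAA). Over all 32851 listed mouse promoters of the same length the shares are 34.7%, 36.1%, 14.2% and 13.1%. The median CpG count is 27 in the promoters of these genes and 6 in all listed promoters. The listed promoters were not limited to genes that passed the filter on low counts, as these genes did. No share was computed for tested genes alone.

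Other genes of the same pathways, from lists drawn up with earlier results of these data known, rose more often than they fell. Of 64 tested genes among 67 listed, 22 rose and 5 fell, while 15.4% of all tested genes rose and 17.6% fell. Their median log2 fold change was 0.20. Among COMPASS partners, which assemble with the H3K4 writers other than KMT2E, 3 of 11 rose and 1 fell. Hcfc1 changed by 0.58 ± 0.11 (adjusted p = 0.000888) and Dpy30, a core subunit of the KMT2A to KMT2D and SETD1 complexes, by −0.91 ± 0.14 (0.000275). Dpy30 had 26.5, 28.2, 28.6 and 31.4 CPM in TSA 1 to 4, against 60.9, 41.5, 46.8 and 66.5 CPM in Vehicle 1 to 4. The highest TSA library lay below the lowest Vehicle library, opposite in direction to the 7 genes grouped as H3K4 writers.

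In the PRC2 accessory list 2 of 7 rose and 1 fell, with Aebp2 at 0.34 ± 0.08 (adjusted p = 0.00606) and Rbbp4, a histone-binding subunit that PRC2 shares with other complexes, at −0.73 ± 0.10 (0.000142). Among other PRC1 genes 5 of 15 rose and 1 fell. Auts2, which belongs to a PRC1 variant linked to active neuronal genes and is mutated in a neurodevelopmental syndrome, had 539 ± 35.5 CPM in TSA and 287 ± 39.5 CPM in Vehicle libraries (SD, n = 4 each; 0.91 ± 0.11, adjusted p = 0.0000625), and Yaf2 changed by −0.57 ± 0.10 (0.000834). Of the 4 genes of PR-DUB, which removes ubiquitin from H2AK119, 2 rose, led by Asxl3 at 0.46 ± 0.09 (adjusted p = 0.00222).

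H3K9 methylation readers rose in 3 of 8 and fell in 1, with Wiz, a partner of the EHMT enzymes, at 0.70 ± 0.10 (adjusted p = 0.000151) and Cbx1, which encodes HP1 beta, at −0.41 ± 0.08 (0.00195). Other methyltransferase genes rose in 5 of 11 and fell in 0, with Setd7 at 0.59 ± 0.10 (adjusted p = 0.000564). Of 8 tested other demethylase genes 2 rose, Phf2 at 0.56 ± 0.10 (adjusted p = 0.000868) and the Y-linked Kdm5d, whose counts followed the sex of the libraries. Kdm6a, the X-linked H3K27 eraser UTX, which escapes X inactivation, was the member of that list that fell. It had 58.1, 63.1, 72.0 and 93.0 CPM in TSA 1 to 4, against 97.1, 105, 91.8 and 97.4 CPM in Vehicle 1 to 4. TSA 4 lay inside the Vehicle range and the 3 TSA libraries with scarce Xist lay below it, and the log2 fold change was −0.44 ± 0.12 (adjusted p = 0.0132) but −0.07 (adjusted p = 0.883) with TSA 4 alone set against Vehicle. The call also ended without TSA 1 or TSA 2 (adjusted p = 0.0562 and 0.0567) and without Vehicle 1 and Vehicle 4 (0.0700).

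Markers of some cell types differed between the groups. All 8 markers of cortical excitatory cells rose, and their summed level was 2608 to 3099 CPM in TSA and 1346 to 2002 CPM in Vehicle libraries, so the defining markers of the labelled tissue were present. Of 8 markers of the ventral forebrain 7 fell and 1 rose, with sums of 484 to 711 CPM in TSA and 931 to 1158 CPM in Vehicle libraries. Microglial markers fell in 5 of 10 (36.2 to 52.9 CPM in TSA and 49.8 to 70.0 CPM in Vehicle libraries), erythroid in 2 of 8 (143 to 179.7 CPM in TSA and 199 to 472 CPM in Vehicle), mesenchymal in 2 of 7 tested (55.3 to 62.1 CPM in TSA and 68.8 to 83.4 CPM in Vehicle) and endothelial in 2 of 8 (127 to 163 CPM in TSA and 122 to 200.2 CPM in Vehicle). The endothelial and microglial sums overlapped between groups, and 17.6% of all tested genes fell. None of the listed markers was at 0 in all libraries. Mitochondrial genes took 1.48 to 1.71% of counts in TSA and 1.599 to 3.36% in Vehicle libraries. The part of these differences in the changes above was not tested, and in bulk tissue fewer cells of a type and less RNA per cell cannot be told apart.

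H3K9ac was present at most of these genes in both groups. Within 1 kb of a gene start, or of either gene end for the 12 genes with no listed start, 36 of the 42 genes had a peak in all 8 libraries. Among the 30 with a listed start this held for 26, while 69.9% of 11058 tested genes with a listed start had a peak in all 8. Of these 30 genes 0 lacked a peak at every listed start in every library, against 5.52% of the tested genes. By library, 42, 39, 39 and 41 of the 42 genes had a peak in TSA 1 to 4, and 42, 42, 41 and 36 did in Vehicle 1 to 4. Vehicle 4 was also the library with the fewest peaks, 22668, against 32248 to 61217 in TSA and 41331 to 43645 in the other Vehicle libraries.

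The 6 genes without a peak in every library were Kdm6b, Ezh1 and Kdm7a (4 TSA and 3 Vehicle libraries each), Cbx7 (2 TSA and 3 Vehicle), Suv39h1 (1 TSA and 3 Vehicle) and Nsd1 (2 TSA and 2 Vehicle). Kdm6b and Nsd1 have no listed start and were counted at either gene end. Kdm6b had a peak in 3 TSA and 3 Vehicle libraries at its lower end and in 4 TSA and 2 Vehicle libraries at its upper end. No difference in presence passed for any gene, in an exact test of the numbers of libraries adjusted over 11058 starts. There 10 genes, or 0.0904%, had a peak in all 4 TSA and no Vehicle library, and 1 gene, or 0.00904%, the reverse. None of them was among the 30 of these genes with a listed start. The 12 genes without one were outside this test. With 4 libraries a side the smallest two-sided exact p is 0.0286 before adjustment, so presence could not show a difference after adjustment.

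The authors' fold enrichment ranked these genes widely within each list. Besides Kmt2d and Kmt2a, the median percentile over the lists was 95.0 for Kdm1a and Pcgf2, 93.6 for Ezh2 and 90.9 for Kdm5b. At the other end stood Cbx7 at 6.9, Suv39h1 at 7.4 and Suv39h2 at 17.3, then Ezh1 at 24.7. Of the genes that fell, Bmi1 and Rnf2 were at 35.7 and 33.6 and Kdm4c was at 53.2. Bmi1 ranged from 9.3 to 77.7 over the lists, which overlaps the 57.1 to 80.5 of Setd2 (median 70.2). Ezh2, with a high rank, and Ezh1, with a low rank, did not pass the RNA test, and the high-ranking Kdm1a did not either.

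Acetylated stretches varied in length among these genes. Peaks of a list less than 1 kb apart were joined into runs. For a gene with several listed starts the longest run at any of them was taken. Kdm2b has 4 listed starts and Jarid2 has 2, whereas Kmt2a and Kmt2d have 1 each. At the 26 genes with a peak at the start in all 8 libraries the median run was 1602.5 to 2354 bp in TSA and 1351.5 to 2388.5 bp in Vehicle libraries, while at all 7735 such starts it was 1111 to 1645 bp in TSA and 807 to 1478 bp in Vehicle libraries. By the median over the 8 libraries the longest runs belonged to Kdm2b (4302 to 6555 bp in TSA and 2259 to 6162 bp in Vehicle libraries), Jarid2 (4562 to 4982 bp in TSA and 448 to 4898 bp in Vehicle), Kmt2a (4377 to 4895 bp in TSA and 3371 to 4822 bp in Vehicle) and Kmt2d (3868 to 4749 bp in TSA and 3126 to 4829 bp in Vehicle). In these 4 genes the ranges of the groups overlapped, and Vehicle 4 gave the shortest Vehicle run. Single libraries gave longer runs at other genes. Pcgf2 had runs of 3410 to 7780 bp in TSA and 3313 to 3635 bp in Vehicle libraries, which overlap, and Ring1 ranged from 1251 to 9741 bp in TSA and 627 to 4811 bp in Vehicle libraries. Bmi1 (440 to 1775 bp in TSA and 1054 to 2154 bp in Vehicle libraries) and Rnf2 (243 to 1427 bp in TSA and 419 to 1487 bp in Vehicle) had short runs that also overlapped.

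**Figure D5:**
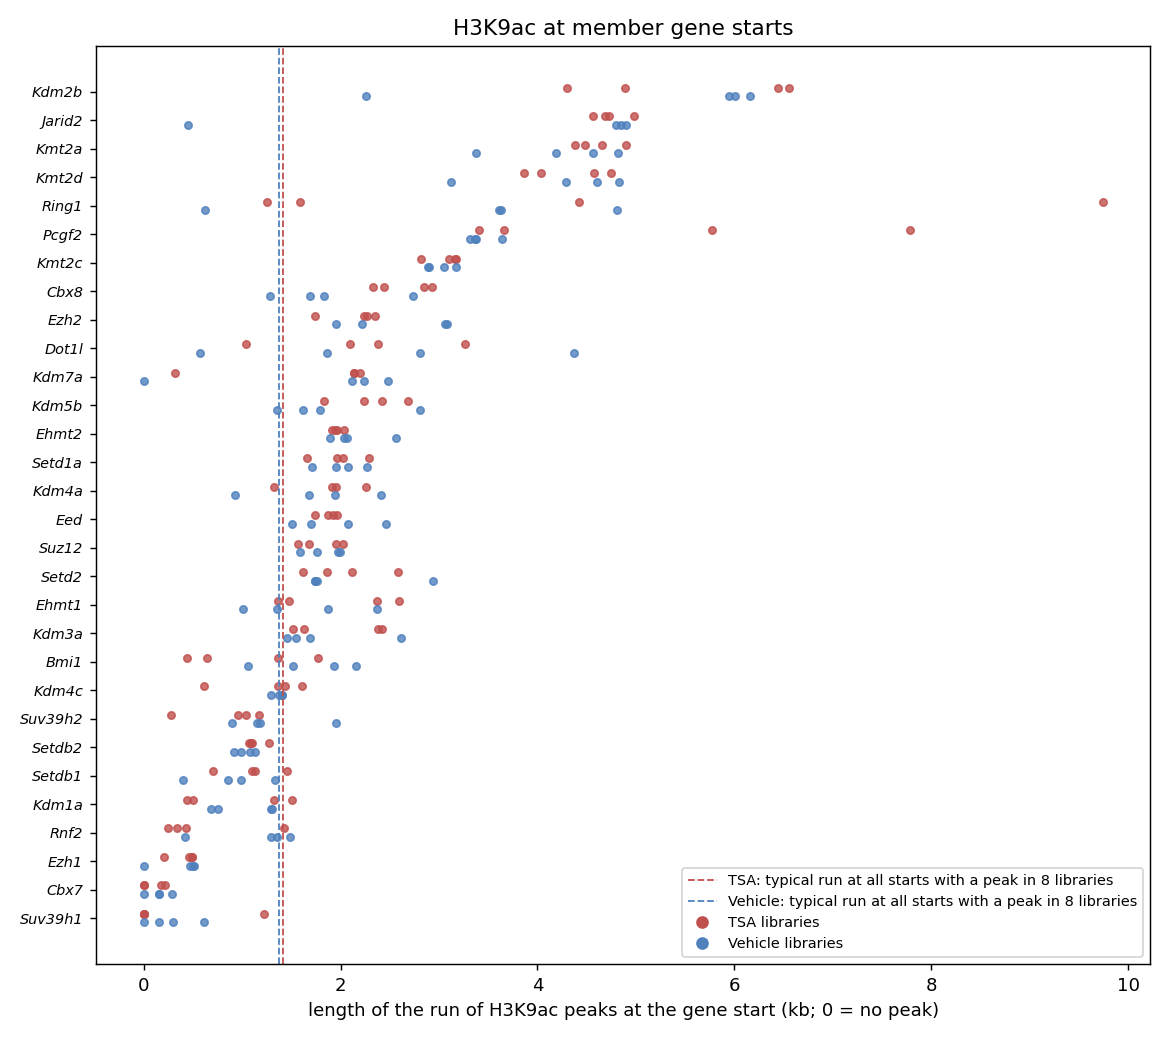
Length in kb of the run of H3K9ac peaks at the start of the 30 genes with a listed start, in each TSA (red) and Vehicle (blue) library, with 0 for no peak; dashed lines give the typical run over all starts with a peak in all 8 libraries, which is the median over libraries of 1412.5 bp in TSA and 1376.5 bp in Vehicle. For genes with several listed starts the longest run at any of them is shown. Genes are ordered by the median over the 8 libraries, from Kdm2b, Jarid2, Kmt2a and Kmt2d at the long end to Ezh1, Cbx7 and Suv39h1 at the short end, single TSA libraries of Ring1 and Pcgf2 reach farthest, and red and blue points overlap in most rows.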

How the data were processed

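RNA and H3K9ac were measured in bulk cortex, 4 TSA and 4 Vehicle libraries each, and 2 inputs were not analysed here. The deposited RNA tables give raw counts of reads for each Ensembl gene and library, without normalization. The kit, per the labels' protocols, does not mark strand, so reads of a gene and its antisense partner cannot be told apart, and close paralogues may share reads. The submitters' processing notes name the build mm10 and SAMtools, and the aligner and counter are not stated there.

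Peaks were called per library with MACS2 2.1.0.20140616 at a q-value limit of 0.1 against the same input of 18937878 tags, per the file headers, with the larger data set scaled to the smaller, 50 bp tags and 1 tag per position. The deposited columns are pileup signal, fold enrichment (a ratio to local background), and −log10 p-value and q-value, which served only for ranks and filters inside each list. H3K9ac lists rested on 15365856 to 19920755 tags in TSA and 11824246 to 24075842 in Vehicle.

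The main test was edgeR 4.0.16 under R 4.3.3 (filterByExpr, TMM, robust quasi-likelihood test, no covariate), and Benjamini-Hochberg adjusted p-values under 0.05 over 15000 genes were called. Every adjusted p-value is from it, unless said otherwise. Each log2 fold change is TSA minus Vehicle, its SE is the change divided by the square root of F, and 95% intervals are the change ± 1.96 SE. CPM were computed on TMM-scaled totals and are not per length, so levels were not compared between genes. Peak presence within 1 kb of a listed start was compared by a two-sided exact test. For 12 genes without a listed start either gene end was used, in place of the planned start. Promoters are RefSeq sequences on GRCm38.p6. Replicates were not duplicates, with a chi-square per degree of freedom of 2.98 to 32.8 between libraries of a group. The fits were tested on simulated data. Alternatives included RLE factors, DESeq2 1.42.0, limma-voom 3.58.1, other filters, lane, Xist and replicate number as covariates, removal of the span trend and leaving out libraries.

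The genes and lists were chosen with earlier results of these data known. Values per library are given for the 2 called genes with the smallest p in each role, for genes that went against their role, and, of the other lists, the gene with the smallest p in each direction is named. Ezh1, Ezh2, Dot1l, Pcgf1, ratios and further genes given by change alone were added to these.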

Additional observations from a re-analysis of the deposited data

Results flagged for a closer look

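In 4 of 108 groups of 4 libraries, over 54 genes, a library stood apart from the other 3 by more than Dixon's 95% critical value. Chance flags about 1 in 20 such groups. Kdm4a had 319 CPM in TSA 3, against 344 to 348 CPM in the other TSA libraries, and Pcgf2 had 164 CPM in TSA 4, against 148 CPM in each of the others. Kdm7a had 76.8 CPM in Vehicle 2, against 62.1 to 64.5 CPM in the other Vehicle libraries, and Bmi1 had 211 CPM in Vehicle 2, against 178 to 183 CPM. Without Vehicle 2 Bmi1 was still called, as was Kdm4a without TSA 3.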

How the results depend on the processing

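DESeq2, RLE factors, a filter of 1 CPM in 4 libraries, lane as a covariate and limma-voom kept all 24 calls among the 42 genes. Xist level as a covariate left 741 genes that rose and 775 that fell over the transcriptome, 7 and 0 of the 42, 4 of the H3K4 writers, 1 of the H3K36 genes and 0 falls in PRC1. With the Xist-rich libraries alone (TSA 4 against 4 Vehicle libraries, the spread taken from Vehicle, a setting chosen after seeing the data) these counts were 258 and 195, 3 and 0, 2, 0 and 0. The median log2 fold change of the 42 genes was 0.34 in each, against 0.26 as reported. Kmt2b and Ehmt2 moved by over 1.5 times, to 0.59 and 0.43 with the covariate. Both settings test with less information, and the part of sex in the loss was not tested. After removal of the span trend 2 of the 42 genes fell, 1 of them in PRC1, and Cbx8 was at 0.47; the cause was not tested. Leaving out each RNA library in turn gave 1707 to 2702 rises and 2104 to 2891 falls over all tested genes, 15 to 23 and 3 to 5 of the 42, 5 to 7 H3K4 writers, 5 H3K36 genes throughout and 2 to 4 falls in PRC1. Of the 24 called genes 3 were kept in all 19 settings, 12 were lost only in the Xist settings and 9 in another setting.

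The replicate numbers are not shown to pair the libraries: libraries of the same number had correlated deviations of 0.097, 0.085, 0.070 and 0.111, and not every one was closest to its own number. The replicate block gave 2598 rises and 2744 falls, 21 and 4 among the 42, with Dot1l added (adjusted p = 0.00883) and no call lost.

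A window of 0.25 kb left 21 of 42 genes with a peak in all 8 libraries, a window of 2.5 kb gave 39 and leaving out an H3K9ac library 36 to 39; the cause was not tested. No called gene changed sign. Log2 fold changes near 0 of genes not called did. With Xist level as a covariate Setdb2 was at 0.0908, Ezh2 at 0.111 and Smarcc1 at 0.0727, and with the Xist-rich libraries alone Setdb2 was at 0.0929, Ezh2 at 0.113 and Smarcc1 at 0.0838. Without Vehicle 1 and Vehicle 4 Cbx7 was at 0.00744 and Suz12 at −0.0925. Without each library in turn Kdm5a ran from −0.0987 to 0.0194, Setdb2 from −0.175 to 0.0249, Ezh2 from −0.0943 to 0.0187 and Smarcc1 from −0.0938 to 0.00299, the positive values arising without Vehicle 2 (Kdm5a, Setdb2 and Ezh2), TSA 1 (Ezh2) or TSA 3 (Smarcc1).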
